A study of Canis lupus familiaris with 77 samples.

Results

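Thymus was compared with bone marrow, the primary lymphoid organs of the dog, over all miRNAs of a miR-seq tissue atlas. All samples labelled with either organ were taken, which gave 5 thymus and 5 bone marrow libraries, or 10 of the 76 libraries and 2 of the 16 tissues. The animals were untreated male beagle dogs, 10 months old and perfused with phosphate buffered saline before the organs were collected, and each bone marrow sample was labelled as 2 mL. No genotype, agent or time point separates the groups. According to the methods, the same 5 dogs gave both organs, but the labels carry no dog number, so the samples could not be paired. The methods also state that bone marrow RNA was extracted with TriReagent LS and tissue RNA with a magnetic bead kit, so organ and extraction cannot be told apart. The study's quality notes describe poorer RNA integrity and mapping in bone marrow, and uneven mapping among thymus samples whose RNA was intact. The study also reported that miRNA profiles varied among its thymus samples, and proposes that heterogeneous tissue taken at harvest could play a part. The parts of RNA quality and of tissue collection in the results below were not tested. In material of mixed cells, fewer cells of a type and less RNA per cell cannot be told apart either.

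A miRNA is cut from a hairpin precursor, whose 5p and 3p arms can each yield a mature strand that lowers the output of the mRNAs it pairs with. In the thymus, T cell precursors mature inside a network of epithelial cells, and the miR-181 family is known for its high level in developing thymocytes. The bone marrow makes myeloid cells, in which miR-223 is abundant, and red cell precursors, in which miR-144 and miR-451 are transcribed together. miR-142, miR-150 and miR-155 are known from leukocytes in general, miR-205 and the miR-200 family from epithelia, and miR-143 and miR-145 from smooth muscle and fibroblasts.

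Counts were scaled to RPM, the share of a library's reads on miRNAs expressed per 1e6 reads, using the total that was deposited for each library. These totals ran from 157871 to 3418708 in thymus and from 162310 to 239023 in bone marrow. A miRNA at 0 reads could still have had up to 3 reads at 95% confidence, which is 12.6 to 18.5 RPM in bone marrow and from 0.878 RPM in Thymus 4 upward in thymus, and this limit covers counting error only. At least 1 read was found for 533 miRNAs in the 10 libraries. The values of an organ are listed below in the order of its replicates 1 to 5, a number that only names the sample.

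The thymus libraries stood in sharp contrast to each other. cfa-miR-181a had 426312, 52264, 41991, 500018 and 53348 RPM in thymus. cfa-miR-142 had 14022, 234, 234, 8991 and 335 RPM in the same libraries. The libraries labelled Thymus 1 and Thymus 4 were high in both miRNAs, and those labelled Thymus 2, 3 and 5 were low in both. The leukocyte list (miR-142, miR-146a, miR-146b, miR-150, miR-155 and miR-342) took 2.37% of the reads of Thymus 1 and 2.37% of Thymus 4, but 0.143%, 0.145% and 0.256% of Thymus 2, 3 and 5. In bone marrow it took 1.52% to 2.47%. The level of cfa-miR-142 in Thymus 2, 3 and 5 was therefore close to the tissue medians of pancreas (320 RPM) and skeletal muscle (231 RPM), and their hsa-miR-142-3p, the opposite arm, stood at 0, 6.27 and 7.89 RPM. Of the epithelial list, cfa-miR-205 had 2064 and 2049 RPM in Thymus 1 and 4 but 0, 3.99 and 57.2 RPM in Thymus 2, 3 and 5. In the same 3 libraries hsa-miR-200b-3p, another epithelial miRNA, had 38.0, 77.6 and 166 RPM, against 0 reads in bone marrow, and cfa-miR-181a was above every bone marrow library. hsa-miR-200b-3p was picked after its values were seen and does not speak for its list. The whole epithelial list took 0.0133%, 0.0156% and 0.0349% of reads in Thymus 2, 3 and 5, beside 0.0157% to 0.0320% in bone marrow. Its member cfa-miR-141 was below bone marrow in these 3 libraries. The leukocyte list and cfa-miR-205 were thus low in Thymus 2, 3 and 5, whereas cfa-miR-181a was above bone marrow in all 5 thymus libraries. The libraries are called by their label here.

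Spearman's rho was taken over the 650 miRNAs detected in the 76 libraries, those at 0 reads included. It was 0.937 between Thymus 1 and 4 and 0.855 to 0.907 among Thymus 2, 3 and 5. Across these sets it was 0.785 to 0.861, which reached no higher than the 5 bone marrow libraries among themselves (0.869 to 0.891). The lowest value among Thymus 2, 3 and 5 and the lowest across the sets both involved Thymus 2, the library with the fewest reads (157871). Outside its own organ, each of Thymus 2, 3 and 5 had its highest mean rho with sciatic nerve (0.838, 0.891 and 0.878), Thymus 1 with lung (0.895) and Thymus 4 with ileum (0.898). Each of the 5 thymus libraries had a lower mean rho with the rest of the thymus libraries (0.824 to 0.873) than with that other tissue. These correlations describe miRNAs within libraries and are no test. Thymus 1 and 4 were never tested against Thymus 2, 3 and 5, since such groups would be made from the outcome. Instead, each comparison with bone marrow was repeated without Thymus 2, 3 and 5, and again without Thymus 1 and 4, as alternatives chosen after seeing the data. Because the libraries were divided on the levels of the leukocyte miRNAs, miR-205 and miR-181a, the reduced comparisons are given for these miRNAs as values with no test.

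**Figure D1:**
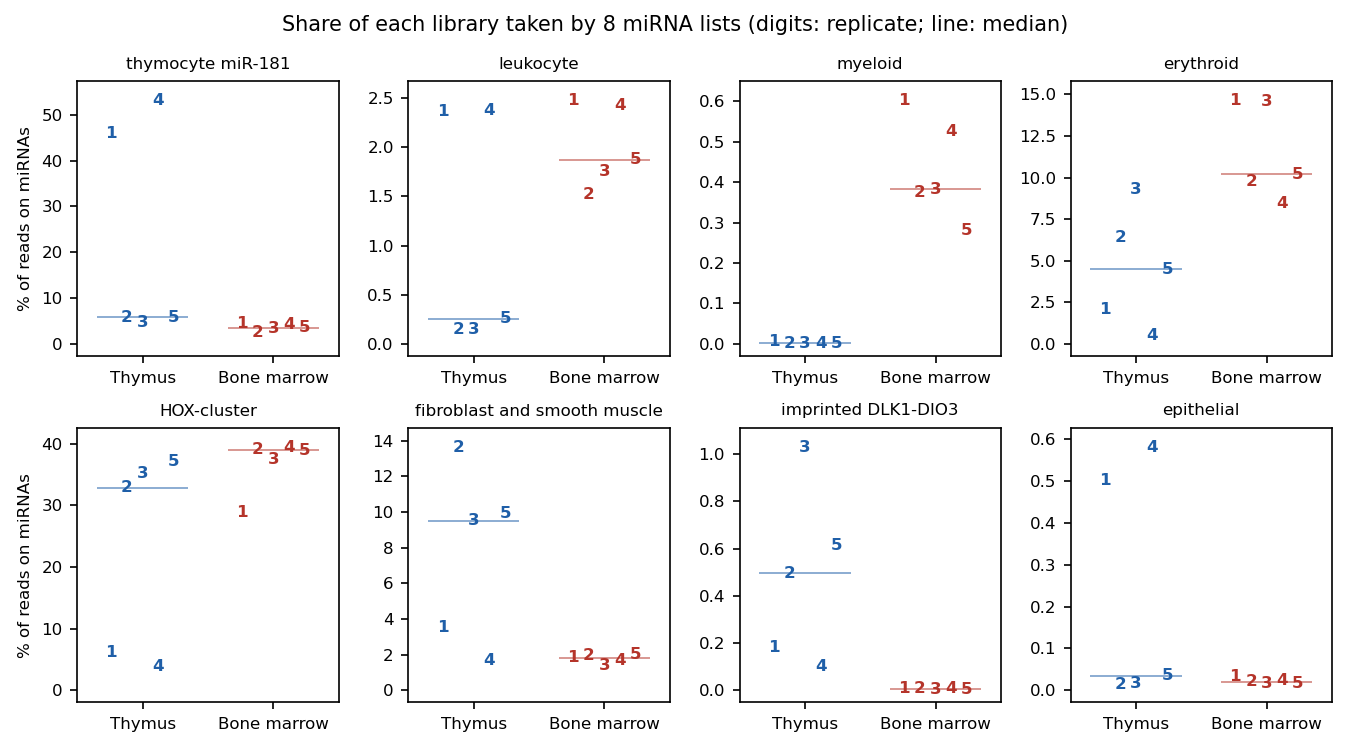
Share of the reads on miRNAs (vertical axis, percent) taken by 8 miRNA lists in the 5 thymus and the 5 bone marrow libraries. Each digit is a library, named by its replicate number, and the line is the median. Thymus 1 and 4 sit apart from Thymus 2, 3 and 5 in the miR-181, leukocyte, erythroid, HOX-cluster, fibroblast and smooth muscle, imprinted DLK1-DIO3 and epithelial lists. The myeloid list separates all 5 bone marrow libraries (0.281% to 0.601%) from all 5 thymus libraries (at most 0.00463%).

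After low counts were filtered, 151 miRNAs were tested with edgeR's quasi-likelihood test. At an adjusted p under 0.05, 47 were higher in thymus (31.1% of those tested) and 35 were higher in bone marrow (23.2%), so 54.3% differed. The fold change was over 2 for 43 and 33 of them. The RPM ranges of the organs did not overlap for 68 miRNAs (45.0%). The median log2 fold change (thymus minus bone marrow) over all tested miRNAs was 0.10. The median SD between replicates on the log2 scale was 0.92 in thymus and 0.36 in bone marrow, and it was the larger in thymus for 132 miRNAs. Without Thymus 2, 3 and 5, 66 miRNAs of 179 tested were higher in thymus (36.9%) and 53 in bone marrow (29.6%). Without Thymus 1 and 4, these counts were 61 (38.1%) and 70 (43.8%) of 160. Both reduced comparisons kept 34 of the 47 thymus calls and 32 of the 35 bone marrow calls. The reduced comparisons share libraries with the full one and were divided on levels already seen. Their counts are therefore a description and no further support, and they include the leukocyte and miR-181 entries used for the division.

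**Figure D2:**
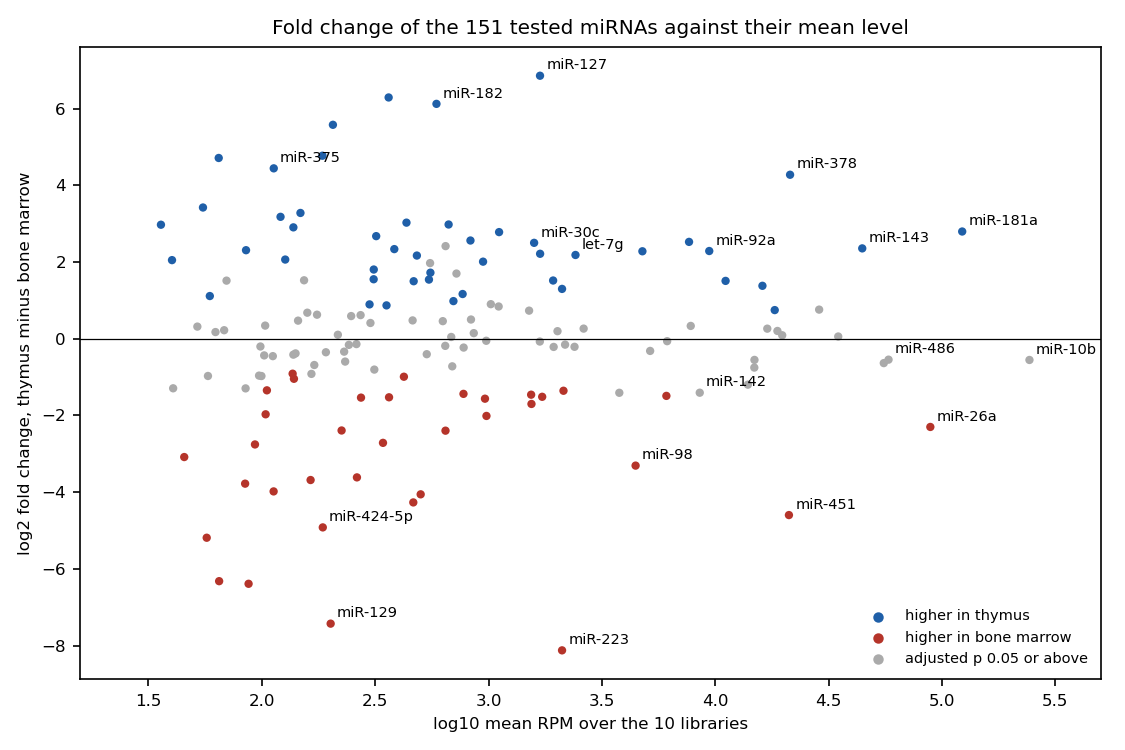
Log2 fold change of thymus minus bone marrow (vertical axis) against the log10 of the mean RPM over the 10 libraries (horizontal axis) for the 151 tested miRNAs. Each point is a miRNA, in blue where it was higher in thymus, in red where it was higher in bone marrow and in grey where the adjusted p was 0.05 or above. miR-223 (-8.13) and miR-127 (6.85) mark the ends, and miR-10b, the most abundant, lies close to 0 (-0.56).

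The most abundant miRNAs were largely shared. cfa-miR-10b took the most reads in every bone marrow library (21.7% to 32.8%) and in Thymus 2, 3 and 5 (27.2% to 31.3%), while cfa-miR-181a came first in Thymus 1 and 4 (42.6% and 50.0%). Of the 10 miRNAs with the highest median, 8 were in the list of both organs. cfa-miR-10b, which lies in the HOXD gene cluster, had 46591, 271646, 283447, 30954 and 313113 RPM in thymus and 217171, 319237, 300029, 321393 and 327584 RPM in bone marrow. The organs overlapped, and the log2 fold change of -0.56 ± 0.67 (SE) did not pass the test (edgeR, adjusted p = 0.518). Without Thymus 2, 3 and 5 the log2 fold change of cfa-miR-10b was -3.06, and without Thymus 1 and 4 it was 0.08. These values are given without a test, because the libraries were divided after the levels were seen. cfa-miR-191 had 23576 to 59577 RPM in thymus and 31394 to 38745 RPM in bone marrow, and its log2 fold change was 0.06 ± 0.32.

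miRNAs of myeloid cells marked the bone marrow in every library. cfa-miR-223 had 5871, 3677, 3686, 5062 and 2727 RPM in bone marrow. In thymus it had 40.0, 0, 2.28, 14.3 and 13.8 RPM, from 32, 0, 4, 49 and 7 reads. The lowest bone marrow library thus stood far above the highest thymus library, and the log2 fold change was -8.13 ± 0.75 (edgeR, adjusted p = 2.27e-05). Its 5p arm, hsa-miR-223-5p, had 78.2 to 201 RPM in bone marrow and 0 to 6.25 RPM in thymus (log2 fold change -6.32 ± 0.77, edgeR adjusted p = 8.42e-05). Both arms kept the direction in the reduced comparisons. Bone marrow had the highest median cfa-miR-223 of the 16 tissues (3686 RPM), ahead of plasma (259 RPM).

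Of the erythroid miRNAs, miR-144 and miR-451 differed between the organs and miR-486 overlapped. cfa-miR-451, which is cut from its hairpin by AGO2 rather than by Dicer, had 53472, 30491, 49971, 30394 and 38793 RPM in bone marrow. In thymus it had 3306, 1812, 1407, 269 and 1388 RPM. All bone marrow libraries were above all thymus libraries, with a log2 fold change of -4.60 ± 0.58 (edgeR, adjusted p = 8.42e-05). cfa-miR-144, the neighbour of miR-451, changed by -4.27 ± 0.84 and its 5p arm by -4.06 ± 0.57, also without overlap. cfa-miR-486, which lies in the ANK1 gene and is known from red cells and muscle, had 90081, 65253, 93202, 52663 and 61799 RPM in bone marrow. In thymus it had 17092, 61880, 91060, 4498 and 43525 RPM. It was low in Thymus 1 and 4 and within the bone marrow range in Thymus 2 and 3, and the log2 fold change of -0.55 ± 0.69 did not pass the test (edgeR, adjusted p = 0.535). Its value was -2.87 without Thymus 2, 3 and 5 and 0.07 without Thymus 1 and 4, given here without a test. The ratio of miR-451 to miR-486 was 0.467 to 0.628 in bone marrow and 0.0155 to 0.193 in thymus. Of the 4 tested members of the erythroid list, 3 were higher in bone marrow, beside 23.2% of all tested miRNAs. These 3 entries, both arms of miR-144 and cfa-miR-451, come from neighbouring genes and are not separate loci. The list had a median log2 fold change of -4.16 beside 0.10 over all tested miRNAs.

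cfa-miR-26a, cfa-miR-26b and cfa-miR-98 were also higher in bone marrow. cfa-miR-26a, a widely expressed miRNA that acts on the cell cycle and on EZH2, had 136689, 192362, 137638, 115772 and 158354 RPM in bone marrow. In thymus it had 22697, 24913, 29441, 25299 and 45252 RPM. The thymus libraries lay close together here, Thymus 1 and 4 included, and none reached the lowest bone marrow library (log2 fold change -2.30 ± 0.37, edgeR adjusted p = 0.000322). Its relative cfa-miR-26b changed by -1.49 ± 0.21. cfa-miR-98, a let-7 family member, had 6535 to 10521 RPM in bone marrow and 343 to 1460 RPM in thymus, a log2 fold change of -3.31 ± 0.33 (edgeR, adjusted p = 2.27e-05). For each of these 3 miRNAs bone marrow had the first or second highest median of the 16 tissues.

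**Figure D3:**
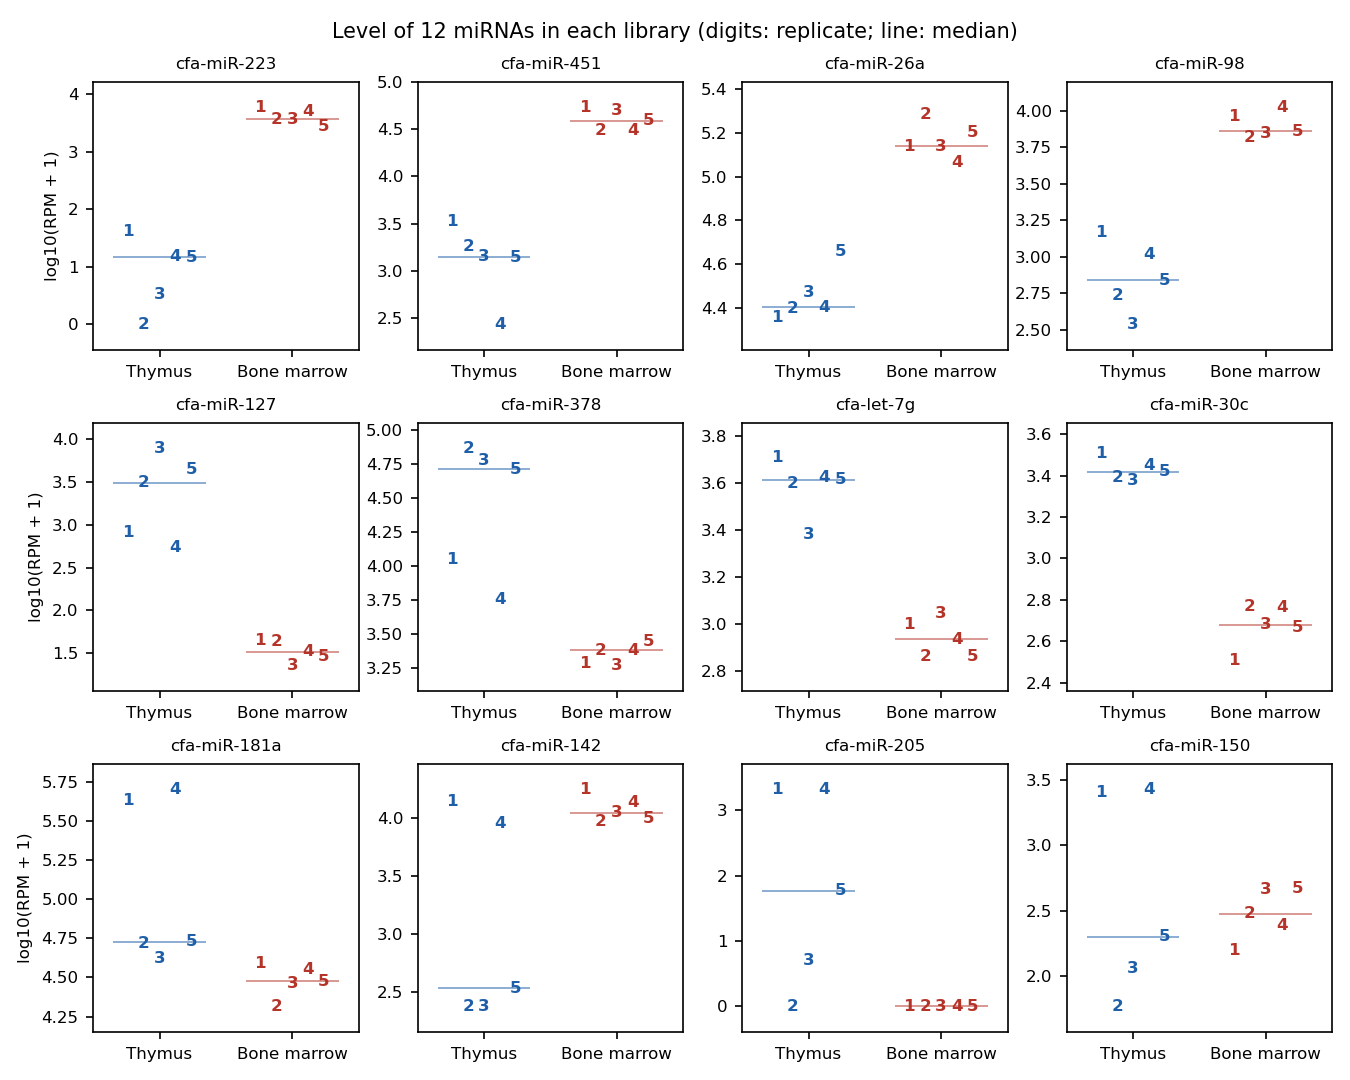
Level of 12 miRNAs as log10(RPM + 1) (vertical axes, each with its own range) in the thymus (blue) and bone marrow (red) libraries, with digits for the replicate and a line at the median. In the first 8 panels the organs do not overlap. In the last row Thymus 1 and 4 lie above Thymus 2, 3 and 5, and for miR-142 and miR-150 the bone marrow libraries lie between or beside them.

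cfa-miR-129, best known from brain, was detected in all 5 bone marrow libraries, at 243 to 651 RPM with a median of 308 RPM. In thymus it had 0, 0, 0, 4.39 and 3.94 RPM, and the brain median was 1129 RPM. The organs were far apart (log2 fold change -7.43 ± 0.82, edgeR adjusted p = 4.65e-05), and the other arm, hsa-miR-129-1-3p, changed by -6.39 ± 0.46 in the same direction. cfa-miR-7, also known from brain and endocrine cells, had 138 to 357 RPM in bone marrow and 0 to 25.7 RPM in thymus (-3.98 ± 0.60). Of the neural list, cfa-miR-124 had 0 reads in all bone marrow libraries and cfa-miR-9 had 0 to 37.0 RPM there. Another member of that list, cfa-miR-128, had 207 to 370 RPM in bone marrow. Further miRNAs higher in bone marrow by the rule for naming were cfa-miR-374b (-3.62 ± 0.47), cfa-miR-660 (-2.72 ± 0.48) and cfa-miR-148b (-2.40 ± 0.30), none with overlap. cfa-miR-8865, an entry annotated in dog, had 62.8 to 168 RPM in bone marrow and 0.293 to 6.33 RPM in thymus, and of the 22 detected entries of its number range it was the 1 tested.

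On the thymus side, 3 of the named miRNAs, miR-127, miR-411 and miR-381, lie in the imprinted DLK1-DIO3 region. This region holds a long array of miRNAs that are transcribed from the maternal chromosome and are best known from brain, muscle and stroma. cfa-miR-127 had 803, 3110, 7817, 547 and 4422 RPM in thymus. In bone marrow it had 43.1, 41.8, 21.6, 31.7 and 27.6 RPM, from 4 to 10 reads a library. Every thymus library was above every bone marrow library, and the log2 fold change was 6.85 ± 0.90 (edgeR, adjusted p = 9.06e-05). The size depended on the libraries, with 4.23 without Thymus 2, 3 and 5 and 7.48 without Thymus 1 and 4. Bone marrow had the lowest median cfa-miR-127 of the 16 tissues (31.7 RPM). The thymus median (3110 RPM) lay below those of brain (44471 RPM) and sciatic nerve (17166 RPM) and near that of skeletal muscle (2673 RPM). Of all tested miRNAs, 0 had their highest tissue median in thymus, and 18 had their lowest in bone marrow. cfa-miR-411 had a median of 760 RPM and at most 1211 RPM in thymus and 0 to 29.3 RPM in bone marrow, and cfa-miR-381 had 112 to 669 RPM in thymus and 1 to 3 reads in each bone marrow library. The summed list took 0.0988% to 1.03% of the reads in thymus and 0.00432% to 0.00962% in bone marrow, where 44 of the 54 detected members were at 0 in all 5 libraries. The 4 members that passed the filter did so through thymus, so their count supports nothing. The fibroblast and smooth muscle list moved in the same libraries, with 9.50% to 13.6% of reads in Thymus 2, 3 and 5, 1.69% and 3.55% in Thymus 4 and 1, and 1.40% to 1.99% in bone marrow, and its part in the result was not tested.

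cfa-miR-378, which lies in the PPARGC1B gene and is known from tissues with many mitochondria, had 11242, 73560, 60222, 5621 and 51826 RPM in thymus. In bone marrow it had 1904, 2393, 1848, 2386 and 2759 RPM. All thymus libraries were higher, Thymus 2, 3 and 5 by the most (log2 fold change 4.27 ± 0.73, edgeR adjusted p = 0.000462). The log2 fold change was 1.77 without Thymus 2, 3 and 5 and 4.91 without Thymus 1 and 4. cfa-miR-143 overlapped, with 15742 to 132995 RPM in thymus and 12079 to 17415 RPM in bone marrow. It passed the test with all libraries (2.35 ± 0.56, edgeR adjusted p = 0.00384), as did cfa-miR-145 (2.17 ± 0.53). Without Thymus 2, 3 and 5 the log2 fold changes were only 0.55 for cfa-miR-143 and 0.64 for cfa-miR-145. These values are given without a test, because the libraries were divided after the levels were seen.

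Other miRNAs were higher in thymus at a like size in all its libraries. cfa-let-7g, a let-7 member that restrains growth genes, had 5108, 3972, 2396, 4185 and 4112 RPM in thymus. In bone marrow it had 992, 728, 1103, 857 and 727 RPM. The organs did not overlap, and Thymus 1 and 4 did not stand apart (log2 fold change 2.18 ± 0.21, edgeR adjusted p = 2.27e-05). cfa-miR-30c had 3211, 2451, 2383, 2799 and 2620 RPM in thymus and 320, 582, 476, 577 and 464 RPM in bone marrow (2.50 ± 0.27, edgeR adjusted p = 3.6e-05). These changes were 2.32 and 2.51 without Thymus 2, 3 and 5 and 2.08 and 2.48 without Thymus 1 and 4. In addition, cfa-miR-375, the islet miRNA of the pancreas, had a median of 201 RPM and at most 291 RPM in thymus and 0 to 18.5 RPM in bone marrow (4.44 ± 0.57). hsa-miR-744-5p had 589 and 633 RPM in Thymus 1 and 4, less in Thymus 2, 3 and 5, and 0 to 18.4 RPM in bone marrow (4.77 ± 0.67). Both had at most 4 reads in a bone marrow library, so their fold changes rest on few reads. cfa-miR-365 (3.18 ± 0.64) and cfa-miR-301a (2.90 ± 0.64) were also higher in thymus without overlap.

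Among the families from let-7 to miR-15/16 that follow, only let-7 held calls in both directions. Their counts are to be read beside the 31.1% and 23.2% of all tested miRNAs that were higher in thymus and in bone marrow. Of 9 tested let-7 members, 5 were higher in thymus, 1, cfa-miR-98, was higher in bone marrow, and 3 were not called, with a median of 0.74. The calls of cfa-let-7b (1.30 ± 0.40) and cfa-let-7f (0.74 ± 0.25) were lost when single libraries were left out, 5 of the 10 for let-7b (its lowest value 0.88, without Thymus 5) and 7 of the 10 for let-7f (0.49, without Thymus 1). Without Thymus 2, 3 and 5 the value of let-7b was -0.021. Of 8 tested miR-30 members, 5 were higher in thymus and 0 in bone marrow, with a median of 2.27, although the abundant cfa-miR-30a (14326 to 52068 RPM in thymus, 19561 to 25106 RPM in bone marrow) was not called. In the list of miR-99, miR-100 and miR-125, 3 of 5 tested were higher in thymus, cfa-miR-125a by 2.01 ± 0.42, cfa-miR-125b by 1.54 ± 0.35 and hsa-miR-125b-2-3p by 1.80 ± 0.44. The last of these fell to 0.57 without Thymus 2, 3 and 5, a value given without a test. Of 5 tested members of miR-23/24/27, cfa-miR-27a was higher in bone marrow (-1.52 ± 0.21) and 4 were not called. cfa-miR-221 was higher in bone marrow (-1.70 ± 0.29), and its neighbour cfa-miR-222 was not called (0.46 ± 0.36). In the miR-15/16 list, cfa-miR-195 was higher in bone marrow (-1.56 ± 0.46) and 4 members were not called, among them the abundant cfa-miR-16 (-0.55 ± 0.54). With 1 call of 5 tested each, the miR-23/24/27 and miR-15/16 lists were near the 23.2% of all tested miRNAs.

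The miR-181 family went both ways. cfa-miR-181a had 38765, 20667, 28828, 35731 and 29941 RPM in bone marrow, below its lowest thymus library (41991 RPM). The log2 fold change was 2.79 ± 0.74 (edgeR, adjusted p = 0.00713), and it was 3.87 without Thymus 2, 3 and 5 and 0.82 without Thymus 1 and 4. cfa-miR-181b followed it (2.52 ± 0.67), and the ratio of miR-181a to miR-181b was 13.0 to 18.3 in thymus and 11.5 to 15.1 in bone marrow. cfa-miR-181c, from a separate gene pair with miR-181d, was in contrast higher in bone marrow, with 2846, 1912, 2027, 2587 and 2056 RPM against 836, 1013, 673, 596 and 865 RPM in thymus (-1.46 ± 0.21, edgeR adjusted p = 0.000143). The ratio of miR-181a to miR-181c was 10.8 to 14.6 in bone marrow, 51.6 to 62.4 in Thymus 2, 3 and 5, and 510 and 840 in Thymus 1 and 4. Among the tissues, the single libraries Thymus 1 and 4 exceeded the highest brain library (372666 RPM) in cfa-miR-181a, but the thymus median (53348 RPM) lay below those of brain (178387 RPM), lung (100568 RPM) and sciatic nerve (70815 RPM).

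The leukocyte list depended on the thymus libraries in its direction. Of its 7 tested members, 1 was called with all libraries, beside 54.3% of all tested miRNAs. This was cfa-miR-146b (0.87 ± 0.34, edgeR adjusted p = 0.0468). Its call was lost in 8 of the 10 comparisons that left out a single library (lowest value 0.45, without Thymus 4). The median of the list was -0.23. cfa-miR-150, the miRNA of mature lymphocytes, had 2543, 57.0, 113, 2689 and 197 RPM in thymus and 154, 297, 459, 243 and 464 RPM in bone marrow. Thymus 1 and 4 were above all bone marrow libraries, and Thymus 2 and 3 were below all of them (log2 fold change 1.70 ± 0.96, edgeR adjusted p = 0.168). It was 2.89 without Thymus 2, 3 and 5 and -1.25 without Thymus 1 and 4. For cfa-miR-142 itself these values were -0.16 and -5.36.

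Other miRNAs also had fold changes of opposite sign in the reduced comparisons, which share their bone marrow libraries and were divided after the levels were seen, so that nothing is tested by it. cfa-miR-155, hsa-miR-142-3p, cfa-miR-141, cfa-miR-130b, hsa-miR-181a-3p, cfa-miR-15b, cfa-miR-19a, cfa-miR-20a, hsa-miR-30e-5p and the joint entry of cfa-miR-106a and hsa-miR-17-5p were above bone marrow with Thymus 1 and 4 and below it with Thymus 2, 3 and 5. For cfa-miR-126, the endothelial miRNA, cfa-miR-23a, cfa-miR-99b and cfa-miR-181d the signs were the other way round. None of these was called with all 5 thymus libraries. cfa-miR-128 was called (2.78 ± 0.90, edgeR adjusted p = 0.0202), but its value was 0.0041 without Thymus 1 and 4. The call was lost without Thymus 1 (2.43), Thymus 4 (1.79) or the bone marrow replicates 2, 4 or 5 (2.58 to 2.62). With all libraries kept, it was also lost in the exact rank-sum test (adjusted p = 0.745) and with limma voom and library weights (0.50, limma adjusted p = 0.348).

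Epithelial miRNAs were near the limit of detection in bone marrow. cfa-miR-205 had 0 reads in all 5 bone marrow libraries, which allows up to 12.6 to 18.5 RPM, and did not pass the filter, with more than 10 reads in 3 thymus libraries. hsa-miR-200b-3p had 162, 38.0, 77.6, 169 and 166 RPM in thymus and 0 reads in bone marrow. cfa-miR-182, from a cluster known in sensory and epithelial cells, had 1717 and 3556 RPM in Thymus 1 and 4, 114 to 290 RPM in Thymus 2, 3 and 5, and 8.37 to 27.6 RPM in bone marrow, and was higher in thymus throughout (6.12 ± 1.10, edgeR adjusted p = 0.00067). cfa-miR-141 was the exception in its list, with 129 to 308 RPM in bone marrow, above Thymus 2, 3 and 5 (16.5 to 38.0 RPM) and below Thymus 1 and 4 (2321 and 3055 RPM). The lists of liver and pancreatic acinar miRNAs took at most 0.0120% and 0.00127% of the reads in any of the 10 libraries, and the striated muscle list at most 0.0456%.

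miRNAs whose genes neighbour each other (within 10 kb in another dog assembly, UU_Cfam_GSD_1.0, used for neighbourhood only) were then set side by side. Genes were found for all but 6 of the 151 tested miRNAs, and 65 miRNAs formed 27 neighbourhoods. In 4 neighbourhoods every tested member was called in 1 direction, and in 14 some members were called in 1 direction and others not at all. In 6 none was called, and in 3 members were called in opposite directions. These counts stand beside the 54.3% of all tested miRNAs that were called. They overlap, since miRNAs with several genes, such as cfa-miR-181a, entered each of their neighbourhoods. Of the 3 with opposite directions, those of miR-17-92 and miR-106a-363 share cfa-miR-19b. The remaining neighbourhood held cfa-miR-194 (-0.91), whose bone marrow call was lost when single libraries were left out. The cluster of hsa-miR-424-5p (-4.92 ± 0.79), cfa-miR-542 (-3.78 ± 0.64) and cfa-miR-450b (-3.69 ± 0.68) was higher in bone marrow as a whole, as was miR-144 with miR-451. hsa-miR-424-5p had 444, 264, 303, 508 and 285 RPM in bone marrow and 32.5, 0, 0.570, 15.2 and 5.91 RPM in thymus, so the organs were far apart. The miR-17-92 and miR-106a-363 clusters, which promote the growth of lymphocytes, held members of both directions. There, cfa-miR-92a (2.28 ± 0.38) and cfa-miR-363 (1.50 ± 0.29) were higher in thymus, and cfa-miR-19b was higher in bone marrow (-2.01 ± 0.75, edgeR adjusted p = 0.0392). The call of cfa-miR-19b was lost without Thymus 3 or 5 or the bone marrow replicates 3, 4 or 5 (-1.75 to -2.17). cfa-miR-92a had 25515, 7417, 9309, 25847 and 9640 RPM in thymus and 4159, 2021, 3675, 3412 and 3063 RPM in bone marrow, and was higher in each thymus library. miR-19b and miR-92a are encoded in both clusters, and their reads were not assigned to a gene.

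**Figure D4:**
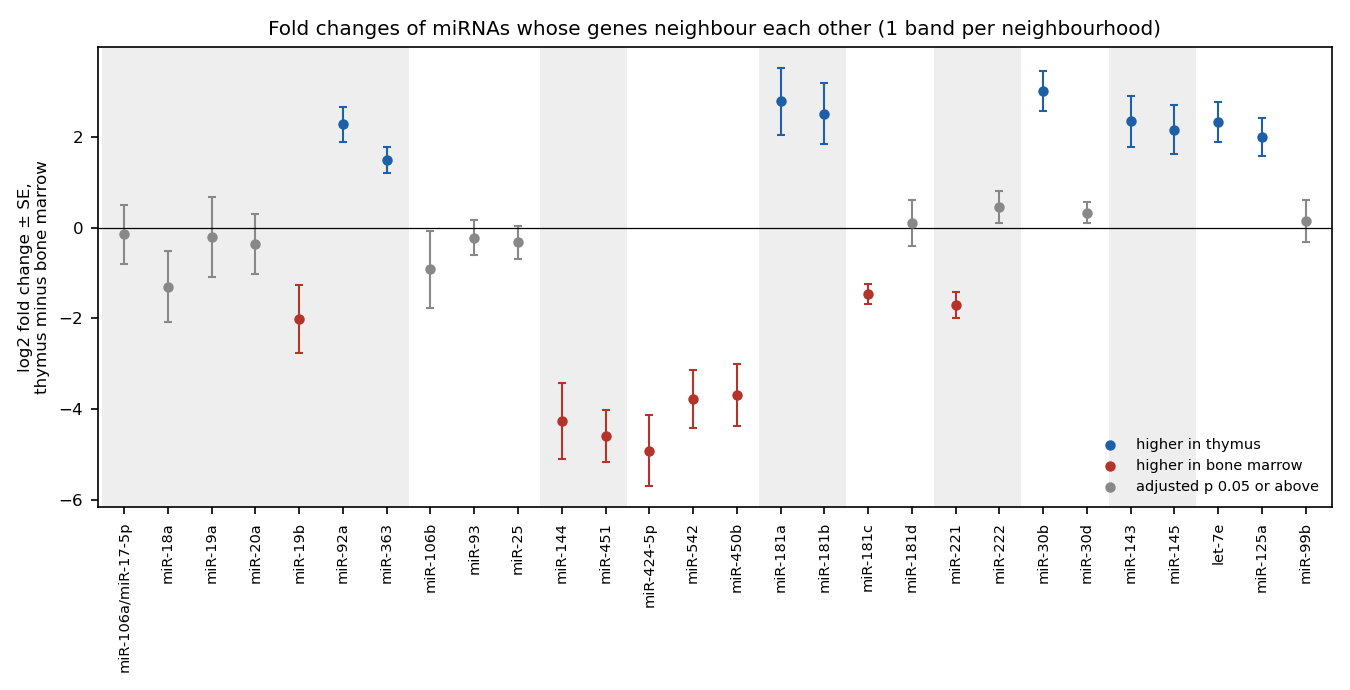
Log2 fold change of thymus minus bone marrow with its SE (vertical axis, n = 5 and 5) for miRNAs grouped by neighbouring genes. The shaded and white bands separate the neighbourhoods, the first band joins the miR-17-92 and miR-106a-363 clusters because they share entries, and colours give the result of the test. Whole groups lie below 0 for miR-144 and miR-451 (-4.27 and -4.60) and for miR-424, miR-542 and miR-450b, whereas miR-92a (2.28) and miR-19b (-2.01) of the first band lie on opposite sides.

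The use of the hairpin arms was compared within libraries, as the log2 ratio of 5p to 3p reads, which does not depend on scaling. Of 61 hairpins with at least 10 reads in every library, 24 (39.3%) differed at an adjusted p under 0.05 in an exact two-sided permutation test, 10 toward the 5p arm in thymus and 14 toward the 3p arm. With 5 libraries an organ, the smallest p that this test allows is 0.00794. The largest differences were those of let-7g (5.53), miR-148b (3.93), miR-1307 (-3.27), miR-320 (-3.07) and miR-92a (-3.07), but all 5 hairpins had at most 2 reads on the minor arm in at least 1 library, so that the size of their ratios depends on depth. The call of miR-148b was lost without the bone marrow replicates 2, 3, 4 or 5, and those of miR-1307 and miR-320 without replicate 2. That of miR-320 was also lost after the libraries were thinned to the smallest one (-1.25). Only 6 hairpins had 10 or more reads on both arms in all 10 libraries, and 3 of them differed, a selection made after seeing the data. The 5p-to-3p ratio of miR-145 was 2.38, 2.62, 3.55, 2.94 and 4.97 on the log2 scale in thymus and 0.24, 0.06, 1.02, 0.78 and 0.46 in bone marrow. The organs did not overlap, with a difference of 2.78 toward 5p in thymus. For miR-28 the ratio was -2.69, -2.96, -3.71, -2.62 and -3.68 in thymus and -1.64, -0.55, -1.19, -1.21 and -1.67 in bone marrow, a difference of -1.88. For miR-30a the difference was -1.83, with 4.18 to 6.31 in thymus and 6.66 to 7.42 in bone marrow. Neither overlapped, and each of the 3 had an adjusted p of 0.0231 in the exact permutation test, although that of miR-30a was lost without the bone marrow replicates 1, 2 or 3 (adjusted p up to 0.0615, exact permutation test).

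**Figure D5:**
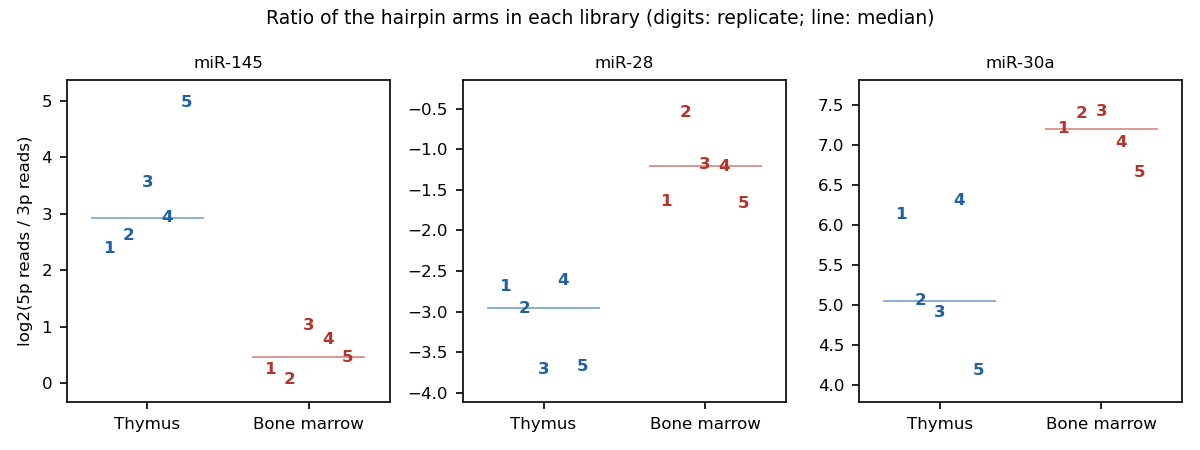
Log2 ratio of 5p to 3p reads (vertical axes, each with its own range) of miR-145, miR-28 and miR-30a in the thymus (blue) and bone marrow (red) libraries, with digits for the replicate and a line at the median. The 5 thymus libraries lie above the bone marrow libraries for miR-145 and below them for miR-28 and miR-30a.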

How the data were processed

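Counts of reads per miRNA for 76 libraries of 16 dog tissues were deposited, with the total of reads on miRNAs and RPM for each library. Per the labels and methods, the authors clipped adaptors, aligned reads to CanFam3.1 without mismatches with OSA, and counted reads overlapping miRNA loci annotated in dog, rat or human. Reads from near-identical miRNAs or from antisense loci could be divided between entries. Entries carry their first name. A miRNA not listed in a library was set to 0 reads, and 1 sample name in the table matched no labelled sample and was not used.

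Samples were grouped by tissue label. Thymus and bone marrow (5 each) were compared with edgeR 4.0.16 (R 4.3.3) on the deposited counts, with TMM, filterByExpr and the robust quasi-likelihood test, Benjamini-Hochberg adjusted over 151 miRNAs at 0.05. These miRNAs held at least 99.4% of reads in each library. Arm ratios used a pseudocount of 0.5 reads and an exact two-sided permutation test over hairpins with 10 or more reads per library. The scripts were tested on simulated data. Python 3.11.15 with numpy 2.4.6, pandas 2.3.3 and matplotlib 3.10.9 made tables and plots. Alternatives covered scaling, filter, test (DESeq2 1.42.0, limma 3.58.1, rank-sum), depth and left-out libraries.

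The miRNAs named were the 12 largest changes in each direction without overlap and with a mean of 100 RPM or more, the 10 most abundant of each organ, list members with a mean of 100 RPM or more, and the 5 largest arm changes. Others were named after their values were seen: hsa-miR-223-5p, hsa-miR-129-1-3p, cfa-miR-26b, cfa-miR-124, cfa-miR-9, cfa-miR-8865, cfa-miR-130b, cfa-miR-19a, cfa-miR-18a, cfa-miR-542, hsa-miR-200b-3p and the arm ratios of miR-145, miR-28 and miR-30a. Members and lists were chosen with earlier results of these data known. Depth, from 157871 to 3418708 reads, bounds the precision of low values. According to the methods, 5 dogs gave each organ, but the labels do not name the dog of a sample. The p-values measure the spread between these samples.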

Additional observations from a re-analysis of the deposited data

Results flagged for a closer look

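In groups of 5 libraries, 4 of 76 examined groups held a library far from the others, measured as its gap to the nearest library over the range of the group, and chance flags about 1 group in 20. In bone marrow, cfa-miR-10a stood at 61813 RPM in replicate 5, below 70310 to 73918 RPM in the others. cfa-miR-10b stood at 217171 RPM in bone marrow replicate 1, below 300029 to 327584 RPM. hsa-miR-744-5p had 0 RPM in bone marrow replicate 1 and 12.6 to 18.4 RPM in the others, from 3 or 4 reads each. The log2 arm ratio of miR-92a was -14.99 in Thymus 3, below -11.19 to -10.45 in the other thymus libraries, and it rests on a 5p arm at 0 reads there.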

How the results depend on the processing

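No paired analysis was possible because the labels carry no dog number. The 47 thymus and 35 bone marrow calls became 83 and 50 of 533 miRNAs without the filter, and 52 and 59 with limma voom and library weights, which were 0.165 and 0.114 for Thymus 1 and 4. The bone marrow count was 53 without Thymus 2, 3 and 5 and 70 without Thymus 1 and 4. Leaving out single libraries gave 40 to 49 thymus and 33 to 41 bone marrow calls. The median log2 fold change of the tested miRNAs was 0.54 in the fit over all tissues and -0.27 after thinning, beside 0.10. Of the 49 named miRNAs that were called, 38 passed under every alternative. The reduced comparisons were divided on miRNA levels already seen, so their signs are a description. Opposite to the value with all libraries were, without Thymus 2, 3 and 5, cfa-let-7b (-0.021), the entry of cfa-miR-106a and hsa-miR-17-5p (0.87), cfa-miR-126 (-1.63), cfa-miR-181d (-1.63), cfa-miR-20a (0.67), cfa-miR-23a (-0.84), cfa-miR-99b (-1.24), hsa-miR-142-3p (1.06) and hsa-miR-30e-5p (0.65). Without Thymus 1 and 4 they were cfa-miR-141 (-3.01), cfa-miR-150 (-1.25), cfa-miR-155 (-1.36), cfa-miR-15b (-1.39) and hsa-miR-181a-3p (-2.73). With voom they were cfa-miR-141 (-1.95), cfa-miR-15b (-0.99) and hsa-miR-181a-3p (-1.96). A further 95 changes of sign concerned values not called in either fit. The 24 hairpins became 15 of 38 with at least 50 reads, 3 of 6 with 10 reads on each arm, and 11 to 29 without single libraries, the lowest without bone marrow replicate 2. The cause was not tested.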

Other observations

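Lists not described above gave these counts. The HOX-cluster list (miR-10a, miR-10b and miR-196) took 3.78% and 6.19% of reads in Thymus 4 and 1, 32.8% to 37.2% in Thymus 2, 3 and 5, and 28.8% to 39.4% in bone marrow, and 0 of 3 tested members were called. Both tested arms of endothelial miR-126 were not called with all libraries. Of the 11 tested members of the miR-17 clusters, 2 were higher in thymus and 2 in bone marrow, beside 31.1% and 23.2% of all tested miRNAs. The miR-29 list had 2 tested members and 0 calls. The ratio of miR-126 to its 3p arm was 6.63 to 9.05 in bone marrow and 8.39 to 10.2 in thymus. 151 of the detected miRNAs were found in thymus only and 19 in bone marrow only, where the deepest library had 239023 reads against 3418708 in thymus.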
